A study of Mus musculus with 6 samples.

Results

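Type I interferon stimulated genes were followed in CD8 T cells sorted from mouse spleen. The set was named by gene symbol, with earlier results of these data known, and holds 40 genes. Of these, 38 were matched by symbol among the 17744 genes of the deposited table, and Mx1 and Mx2 are not analysed here. All 38 had FPKM (fragments per kilobase of gene, scaled to library size) of at least 1 in 3 libraries or more and entered the test, as did 10655 genes in all.

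The study compared 3 libraries of control animals, labelled wild type, with 3 libraries of animals that received focused ultrasound, which brings sound energy to a point inside a tissue. The labels enter the ultrasound treatment in both the treatment and the genotype field of the second group, and give no strain, age, tumour status, dose or time after treatment. Cells of both groups were sorted as CD45+ CD3+ CD8a+, and RNA was sequenced in bulk. Nothing in the labels says that the libraries of a group came from separate animals. The p-values set the group difference against the spread between these libraries, which may be technical and not that between animals.

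Type I interferons bind the receptor Ifnar1 and Ifnar2, which signals through the kinases Jak1 and Tyk2. A complex that holds Stat2 and Irf9 then binds the interferon stimulated response element, or ISRE, in promoters of the target genes. The products restrict viruses by degrading or sequestering RNA, and others sense nucleic acids or shut the response down. Resting T cells hold a low level of many of these transcripts, and interferon raises them.

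The libraries did not fall into 2 uniform groups. Depth was similar, with 35024080 to 38113104 recovered reads. The share of reads from mitochondrial genes was 2.05%, 2.07% and 2.70% for control 1, 2 and 3, and 2.19%, 0.954% and 0.937% for ultrasound 1, 2 and 3. The 10 T cell markers, Cd3e, Cd8a and Cd8b1 among them, were present in every library, with a summed FPKM of 2845 to 3004 in controls and 2486, 3319 and 3058 in ultrasound 1, 2 and 3. Markers of other cells were present too. The 13 monocyte and macrophage markers summed to 923, 453 and 419 FPKM in control 1, 2 and 3 and to 2152, 2148 and 3600.0 in ultrasound 1, 2 and 3. B cell markers summed to 236 to 363 FPKM in controls, 175 in ultrasound 1 and 925 and 806 in ultrasound 2 and 3. Summed neutrophil markers were highest in ultrasound 1, with 187 to 575 FPKM in controls and 2319, 642 and 673 in ultrasound 1, 2 and 3. Of the 10 neutrophil markers 8 were highest in ultrasound 1, and Csf3r and Cxcr2 were highest in ultrasound 3. The sums of plasma cell markers were 119 to 187 FPKM in controls and 305 to 385 in ultrasound libraries, and those of NK cell markers 4.26 to 7.07 and 8.56 to 29.4. Results are therefore also given without ultrasound 1, and for ultrasound 1 alone against the controls.

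Promoter sequence shows what the members share beyond their names. RefSeq windows from 250 bases before to 50 bases after the start (GRCm38.p6, the assembly that mm10 names) were matched by symbol for 29 of the 40 members. The ISRE core was searched on both strands as GAAA, any 2 bases and GAAA again. Of the 29 members 15, or 51.7%, held a match, against 3.99% of the 27025 genes with a window. The interferon gamma activated sequence TTCNNNGAA, which reads the same on both strands, matched in 5 of the 29, or 17.2%, against 9.55% of all genes. Of the 5, the matches in Oas1a and Bst2 lay in windows that also held the ISRE core, and that of Bst2 overlapped it. A match describes letters and does not show binding. The stretches below are the 250 bases before the start, 5′ to 3′ on the strand of the gene, with ISRE matches in capitals.

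Isg15 (chr4:156200819-156201068, minus strand) and Oas1a (chr5:120907526-120907775, minus strand) are shown because their matches overlap in tandem close to the start. Isg15 held 3 matches and Oas1a held 2.
Isg15: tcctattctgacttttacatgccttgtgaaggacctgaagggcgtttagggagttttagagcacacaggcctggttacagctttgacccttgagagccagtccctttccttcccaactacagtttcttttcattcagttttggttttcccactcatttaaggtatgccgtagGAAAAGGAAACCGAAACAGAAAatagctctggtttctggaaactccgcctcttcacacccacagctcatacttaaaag
Oas1a: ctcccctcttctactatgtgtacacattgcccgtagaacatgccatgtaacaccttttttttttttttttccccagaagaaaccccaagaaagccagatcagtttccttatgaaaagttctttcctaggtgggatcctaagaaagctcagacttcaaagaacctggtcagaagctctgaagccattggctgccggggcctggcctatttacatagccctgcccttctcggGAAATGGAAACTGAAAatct

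Ifit3 (chr19:34583279-34583528, plus strand) and Ifit3b (chr19:34607707-34607956, plus strand) are near copies in the Ifit cluster. Their promoters share an identical run of 169 bases, offset by 32 bases, with both ISRE matches inside it.
Ifit3: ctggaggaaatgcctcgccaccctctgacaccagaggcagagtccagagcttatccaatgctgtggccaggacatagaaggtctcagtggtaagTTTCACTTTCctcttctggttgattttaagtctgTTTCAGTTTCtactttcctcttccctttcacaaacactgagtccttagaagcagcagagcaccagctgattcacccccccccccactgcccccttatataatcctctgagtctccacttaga
Ifit3b: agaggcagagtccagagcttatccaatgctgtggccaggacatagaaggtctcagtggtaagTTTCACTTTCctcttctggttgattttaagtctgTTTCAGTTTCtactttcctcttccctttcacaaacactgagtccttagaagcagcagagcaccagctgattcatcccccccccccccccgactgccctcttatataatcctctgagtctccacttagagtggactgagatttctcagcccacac

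Ddx60 (chr8:61927837-61928086, plus strand), Ifi203 (chr1:173942493-173942742, minus strand) and Herc6 (chr6:57580742-57580991, plus strand) are shown because each lay lower in all ultrasound than in all control libraries. Ddx60 held 2 matches with the same 10 letters. Ifi203 held 1 match in the window shown and 0 in a window at another start. Herc6 held 0.
Ddx60: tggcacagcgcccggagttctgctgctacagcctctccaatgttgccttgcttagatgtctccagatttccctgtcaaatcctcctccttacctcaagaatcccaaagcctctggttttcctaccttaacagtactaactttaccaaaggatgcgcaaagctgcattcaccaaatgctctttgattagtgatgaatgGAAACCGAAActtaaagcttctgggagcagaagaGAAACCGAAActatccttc
Ifi203: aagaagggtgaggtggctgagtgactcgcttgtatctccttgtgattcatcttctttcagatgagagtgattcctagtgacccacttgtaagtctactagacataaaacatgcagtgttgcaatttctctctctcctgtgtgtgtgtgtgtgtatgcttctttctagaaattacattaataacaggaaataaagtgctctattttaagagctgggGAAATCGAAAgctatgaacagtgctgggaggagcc
Herc6: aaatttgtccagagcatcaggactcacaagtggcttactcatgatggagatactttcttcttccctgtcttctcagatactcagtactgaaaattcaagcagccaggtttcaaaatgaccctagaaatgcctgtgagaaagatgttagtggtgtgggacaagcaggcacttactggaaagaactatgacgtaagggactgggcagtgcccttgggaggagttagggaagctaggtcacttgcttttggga

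Across the members, 3 of 38 had an adjusted p under 0.05 by limma (a moderated linear model over all 10655 genes, Benjamini-Hochberg adjusted), or 7.89%, where 8.11% of all genes tested did. Ifi204 was higher, and Herc6 and Ifi203 were lower in ultrasound libraries. The higher calls took 6.55% of all genes and the lower calls 1.56%. The median log2 change of the members was 0.034 and that of all genes 0.087, and 21 members lay above 0 and 17 below. The median of all genes shifted by -0.093 with median-of-ratios size factors and by -0.084 with upper-quartile factors, and the members' median was then -0.066 and -0.056. Under both, 2 members passed by limma, 0 higher and 2 lower, Ifi204 losing its call. Of all genes 4.1% then passed with median-of-ratios factors, 2.75% higher and 1.35% lower, and 5.85% with upper-quartile factors, 4.05% higher and 1.8% lower. At an unadjusted p under 0.05 there were 7 members, where 31.2% of all genes were. In bulk RNA, fewer cells of a type and less RNA per cell cannot be told apart.

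The calls depended on single libraries. Without ultrasound 1, 14 of 38 members passed by limma, 8 higher and 6 lower, where 53.6% of all genes passed, 33.8% higher and 19.9% lower. Without control 1 only Ifi204 passed, where 5.4% of all genes did. Without control 2, control 3, ultrasound 2 or ultrasound 3, 0 members passed by limma, and 0 of all genes did. In those fits 6, 5, 6 and 6 members had an unadjusted p under 0.05. With ultrasound 1 alone against the controls 0 members passed, where 1.41% of all genes did, and 9 had an unadjusted p under 0.05. That fit takes its spread from the other libraries and assumes that the lone library varies as they do. For the fits of this paragraph no share of all genes at an unadjusted p under 0.05 was computed. The counts at that level therefore cannot be set against all genes.

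**Figure D1:**
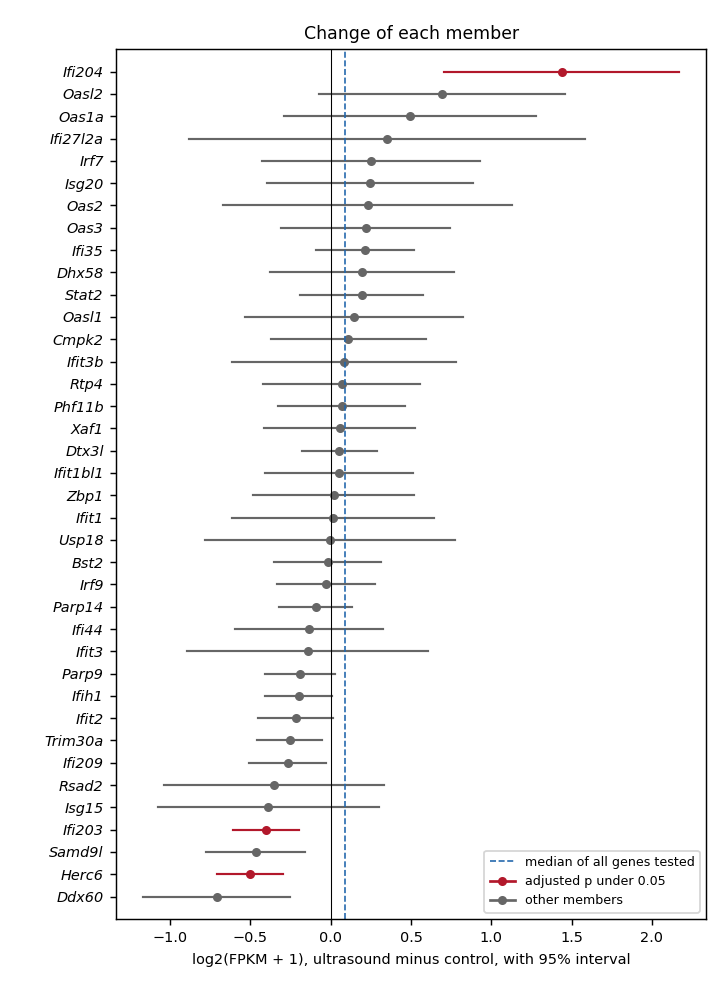
Change of each of the 38 members on the log2(FPKM + 1) scale, ultrasound minus control, with 95% intervals from limma (3 libraries a group). Ifi204, Ifi203 and Herc6 (red) passed an adjusted p of 0.05, and the dashed line marks the median of all genes tested at 0.087.

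The libraries fell in a similar order across most members. Ultrasound 1 was the lowest of the 6 libraries for 24 of 38 members, or 63.2%, where it was lowest for 13.8% of all genes tested. This was not particular to the members, as it was also lowest for 9 of 10 T cell and 8 of 8 B cell markers. Of the monocyte and macrophage markers it was lowest for 0 of 13, and of the neutrophil markers for 0 of 10. Ultrasound 3 was the highest for 21 members, or 55.3%, against 25.2% of all genes. Both held for 15 members, or 39.5%, against 3.35%. Ultrasound 1 was below every control for 32 members (84.2% against 23.1%), and ultrasound 3 above every control for 21 (55.3% against 49.6%). Among the controls, control 3 was highest for 33 members (86.8% against 29.6%). Against the mean of the controls, the median member stood at -0.30 for ultrasound 1, 0.043 for ultrasound 2 and 0.37 for ultrasound 3, and the median of all genes at 0.062, 0.13 and 0.088. The median SD of a member on this scale was 0.16 among controls and 0.38 among ultrasound libraries, against 0.10 and 0.19 for all genes. These shares describe 6 libraries, and no test was made on them.

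**Figure D2:**
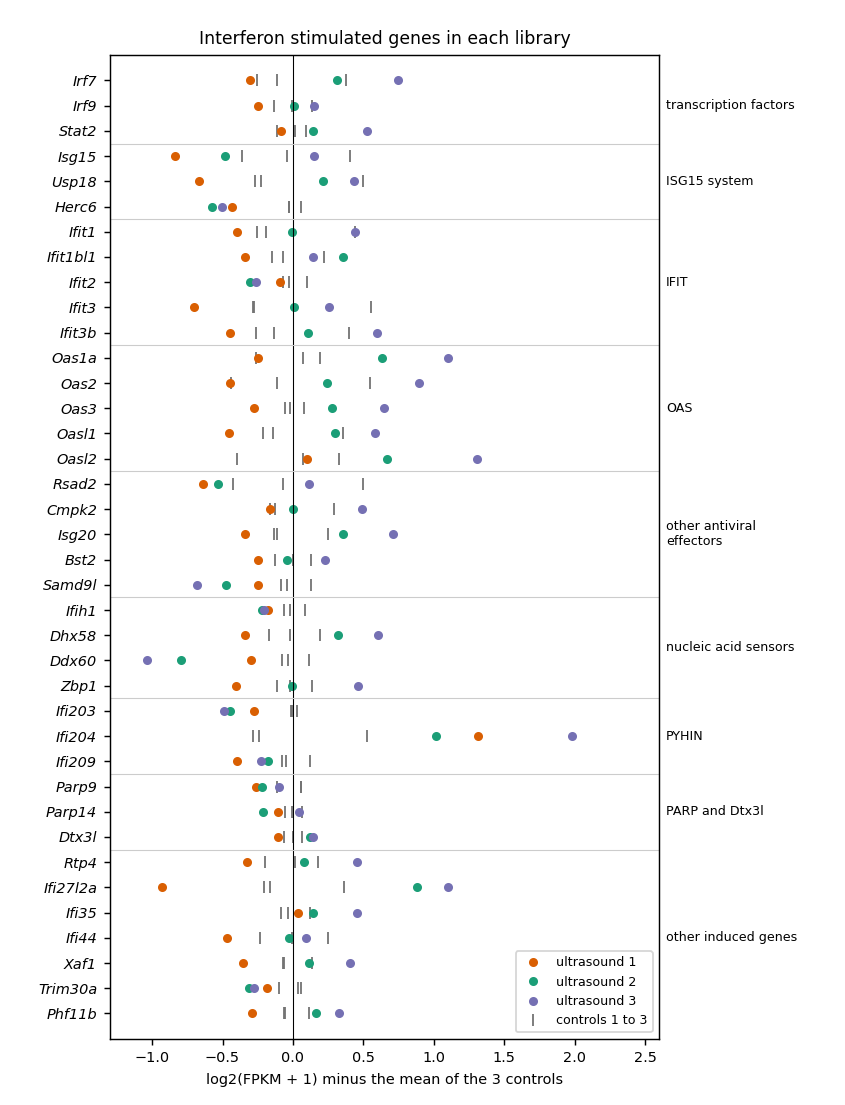
Each member in each library, as log2(FPKM + 1) minus the mean of the 3 controls, by role. Grey ticks are controls and coloured points are ultrasound 1, 2 and 3. Ultrasound 1 lies left of every control for 32 of 38 members, and ultrasound 3 lies right of every control for 21.

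**Figure D3:**
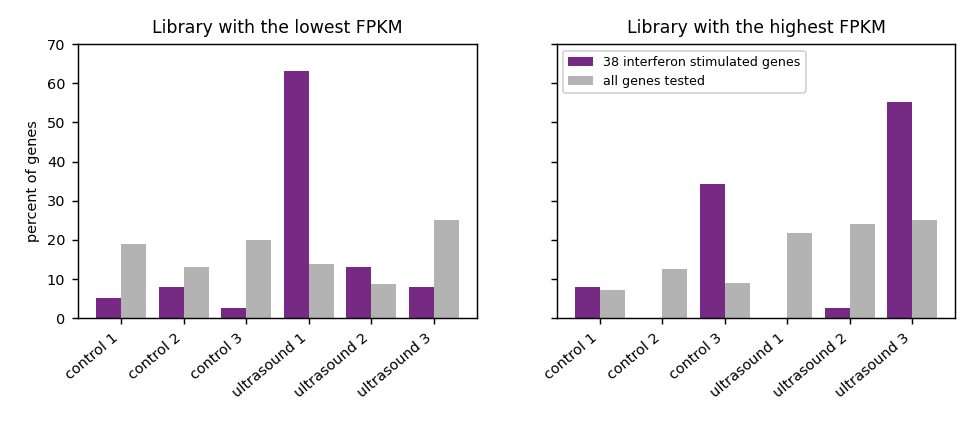
Share of genes for which a given library had the lowest (left) or highest (right) FPKM, for the 38 members and for all 10655 genes tested. Ultrasound 1 was lowest for 63.2% of members and ultrasound 3 highest for 55.3%.

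The member transcription factors Irf7, Irf9 and Stat2 did not pass. Irf7, the factor that amplifies interferon production, had 61.0, 55.2 and 86.1 FPKM in the controls and 53.3, 82.5 and 112 FPKM in ultrasound 1, 2 and 3. Ultrasound 1 was below and ultrasound 3 above all controls, so the groups overlapped. The log2 change was 0.25 (95% interval -0.43 to 0.93, limma adjusted p 0.554). Stat2 and Irf9, partners in the complex that binds the ISRE, averaged 24.2 ± 1.81 and 53.0 ± 5.05 FPKM in controls and 28.2 ± 6.36 and 52.1 ± 7.21 in ultrasound libraries (SD, n = 3 each). Both overlapped between groups, and ultrasound 3 was the highest library for each of these 3 factors.

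The ISG15 system held Herc6, the member with the lowest adjusted p. Isg15 encodes a ubiquitin-like protein that is joined to target proteins, Herc6 is the mouse ligase that joins it, and Usp18 removes it and damps receptor signalling. Herc6 had 11.4, 11.5 and 12.2 FPKM in the controls and 8.40, 7.53 and 7.97 FPKM in ultrasound 1, 2 and 3. The groups did not overlap, and the gap was wide relative to an SD of 0.429 FPKM in controls and 0.438 in ultrasound libraries. The log2 change was -0.50 (standard error 0.087, limma adjusted p 0.0311). The call was lost without control 1, control 2, control 3, ultrasound 2 or ultrasound 3, with limma adjusted p from 0.0573 to 0.159, while the log2 change ranged from -0.52 to -0.47. Without control 2, control 3, ultrasound 2 or ultrasound 3, 0 of all genes passed.

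Isg15 and Usp18 behaved otherwise. Isg15 had 33.0, 26.2 and 45.5 FPKM in the controls and 18.6, 24.1 and 37.9 FPKM in ultrasound 1, 2 and 3. Ultrasound 1 and 2 were below every control and ultrasound 3 was not. Its log2 change of -0.39 had a 95% interval from -1.08 to 0.30 (limma adjusted p 0.369). Usp18 averaged 24.5 ± 8.09 FPKM in controls and 24.9 ± 9.19 in ultrasound libraries (SD, n = 3 each), with a 95% interval of its log2 change from -0.78 to 0.77.

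The Ifit proteins bind viral RNA that lacks host cap marks. Of their genes, which lie together on chromosome 19, 0 of 5 passed by limma, with 0 at an unadjusted p under 0.05. Ifit2 had 13.5, 13.1 and 14.8 FPKM in the controls and 12.8, 11.0 and 11.3 FPKM in ultrasound 1, 2 and 3. Each ultrasound library was below each control, with a log2 change of -0.22 (95% interval -0.45 to 0.014, limma adjusted p 0.177). Ifit1bl1, the most abundant of the family per length, had 21.7, 23.0 and 28.4 FPKM in the controls and 18.9, 31.2 and 26.8 FPKM in ultrasound 1, 2 and 3. Its groups overlapped, with a log2 change of 0.051 (limma adjusted p 0.867) that was -0.051 with median-of-ratios size factors.

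Ifit1, Ifit3 and Ifit3b averaged 8.03 ± 2.55, 17.1 ± 6.47 and 3.25 ± 1.09 FPKM in controls and 8.14 ± 2.66, 15.3 ± 5.15 and 3.61 ± 1.62 in ultrasound libraries (SD, n = 3 each). In each of the 3, ultrasound 1 was the lowest library and control 3 the highest control. Of the 100-base words of Ifit3 transcripts, 31.7% also occur in Ifit3b, the copy whose promoter is shown above. How reads matching both were counted is not given in the sources used here, so the split between these genes is uncertain.

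The active enzymes of the OAS family make the second messenger that switches on RNase L. All 5 Oas and Oasl genes of the set had a log2 change above 0, from 0.14 to 0.69. Of these 0 of 5 passed by limma, with 0 at an unadjusted p under 0.05. Oasl2 had 12.0, 8.39 and 14.5 FPKM in the controls and 12.2, 18.7 and 29.6 FPKM in ultrasound 1, 2 and 3. Oas1a had 17.9, 14.0 and 19.6 FPKM in the controls and 14.1, 27.0 and 37.7 FPKM in ultrasound 1, 2 and 3. For both, ultrasound 2 and 3 were above every control and ultrasound 1 lay among the controls. The log2 change of Oasl2 was 0.69 (95% interval -0.071 to 1.46, limma adjusted p 0.189). That of Oas1a was 0.50 (95% interval -0.29 to 1.28, limma adjusted p 0.322).

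Without ultrasound 1, Oasl2, Oas1a and Oas3 passed by limma, with log2 changes of 0.99, 0.87 and 0.46 and adjusted p of 0.0315, 0.0142 and 0.0136. In that fit 53.6% of all genes passed, 33.8% higher and 19.9% lower. Ultrasound 3 was the highest library for all 5 OAS genes. Oas1a shares 40.9% of its 100-base words with Oas1g, so its value is uncertain. Oas1g, singled out after its values were seen, averaged 1.10 ± 0.316 FPKM in controls and 3.71 ± 1.83 in ultrasound libraries (SD, n = 3 each, limma adjusted p 0.0555).

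Of the other antiviral effectors, 0 of 5 passed by limma, with 1 at an unadjusted p under 0.05. That gene was Samd9l, an inhibitor of translation and growth, with 50.8, 49.3 and 57.2 FPKM in the controls and 44.0, 37.4 and 32.2 FPKM in ultrasound 1, 2 and 3. All ultrasound libraries lay below all controls. Its log2 change was -0.47 (95% interval -0.78 to -0.16, limma adjusted p 0.0723), and -0.58 without ultrasound 1 (limma adjusted p 0.00253). Without ultrasound 1, 19.9% of all genes passed as lower. Bst2, or tetherin, which holds budding virus at the cell surface, was the most abundant of the 5 per length.

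Bst2 had 71.5, 65.3 and 77.9 FPKM in the controls and 60.0, 69.3 and 83.6 FPKM in ultrasound 1, 2 and 3. The controls lay between ultrasound 1 and ultrasound 3, with a log2 change of -0.020 (95% interval -0.35 to 0.31). Bst2 also marks plasmacytoid dendritic cells, whose 8 other markers summed to 59.1 to 78.0 FPKM in controls and to 44.7, 185 and 172 for ultrasound 1, 2 and 3. The largest part of each sum was Ly6d, a gene that B cells also express, with 49.9, 28.0 and 28.9 FPKM in the controls and 23.9, 153 and 144 FPKM in ultrasound 1, 2 and 3. Pacsin1 and Ccr9, the other tested markers, had log2 changes of -0.27 and -0.24, and Siglech, a defining marker, was at most 1.46 FPKM in any library. None of these markers had all ultrasound above all control libraries, and 0 were listed at 0 in any library. Their part in the Bst2 values was not tested. Rsad2, the enzyme viperin, and Cmpk2, a nucleotide kinase, averaged 4.25 ± 1.72 and 7.74 ± 1.59 FPKM in controls and 3.08 ± 1.22 and 8.51 ± 2.32 in ultrasound libraries (SD, n = 3 each). Isg20, an RNA exonuclease, had a log2 change of 0.24 over all libraries and 0.53 without ultrasound 1 (limma adjusted p 0.545 and 0.0257). In the latter fit 33.8% of all genes passed as higher.

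Of the nucleic acid sensors, 0 of 4 passed by limma, with 1 at an unadjusted p under 0.05. Ddx60, a helicase linked to RNA sensing, had 6.66, 6.91 and 7.77 FPKM in the controls and 5.59, 3.67 and 2.95 FPKM in ultrasound 1, 2 and 3. Ifih1, the sensor MDA5 of long double-stranded RNA, had 9.05, 8.06 and 8.34 FPKM in the controls and 7.37, 7.15 and 7.23 FPKM in ultrasound 1, 2 and 3. Both lay lower in all ultrasound than in all control libraries, yet neither passed. The log2 change of Ddx60, the lowest of the members, was -0.71 (95% interval -1.17 to -0.25, limma adjusted p 0.0678), and -0.92 without ultrasound 1 (limma adjusted p 0.000858). Without ultrasound 1, 19.9% of all genes passed as lower. The log2 change of Ifih1 was -0.20 (95% interval -0.41 to 0.010, limma adjusted p 0.174).

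Zbp1, a sensor of left-handed nucleic acids that can start necroptosis, had 68.4, 64.1 and 76.2 FPKM in the controls and 52.2, 69.2 and 95.7 FPKM in ultrasound 1, 2 and 3. The ultrasound libraries reached both below and above the controls. Its log2 change was 0.017 (limma adjusted p 0.960) and -0.087 with median-of-ratios size factors. Dhx58, the RNA sensor LGP2, averaged 15.0 ± 2.02 FPKM in controls and 17.9 ± 5.89 in ultrasound libraries (SD, n = 3 each), with ultrasound 1 lowest and ultrasound 3 highest.

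**Figure D4:**
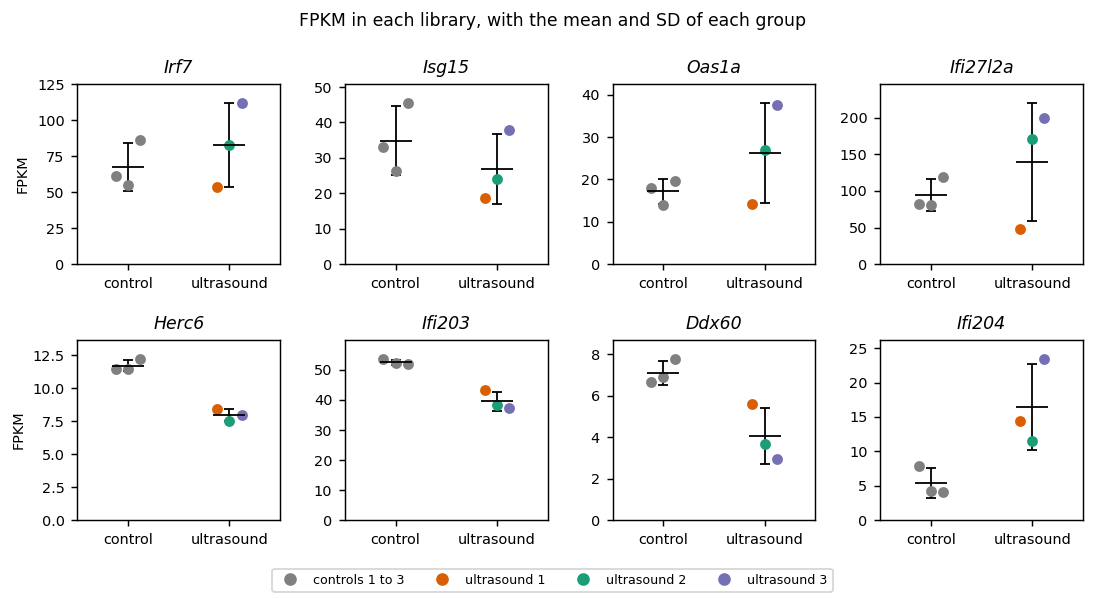
FPKM of 8 members in each library (points), with the mean and SD of each group (3 libraries each). Irf7, Isg15, Oas1a and Ifi27l2a overlap between groups with ultrasound 1 at the bottom of its group, whereas Herc6, Ifi203 and Ddx60 lie below all controls and Ifi204 above.

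The PYHIN family, DNA-binding proteins encoded side by side on chromosome 1, held the other 2 calls, in opposite directions. Ifi203 had 53.6, 52.3 and 52.0 FPKM in the controls and 43.2, 38.4 and 37.2 FPKM in ultrasound 1, 2 and 3. Its log2 change was -0.40 (standard error 0.087, limma adjusted p 0.0430). Ifi204 had 7.91, 4.22 and 4.07 FPKM in the controls and 14.4, 11.5 and 23.4 FPKM in ultrasound 1, 2 and 3. Its log2 change was 1.44 (standard error 0.31, limma adjusted p 0.0423), and it was the only member with all ultrasound libraries above all controls. Ifi209 had 73.7, 72.2 and 83.1 FPKM in the controls and 57.6, 67.3 and 64.9 FPKM in ultrasound 1, 2 and 3. Its ultrasound libraries lay below all controls, but it did not pass (log2 change -0.27, limma adjusted p 0.131).

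Both calls were lost in several fits without 1 library. Without control 2, control 3, ultrasound 2 or ultrasound 3, 0 of all genes passed, so a loss there is not particular to these genes. Over all fits without 1 library, the log2 change was -0.47 to -0.36 for Ifi203 and 1.17 to 1.70 for Ifi204. Ifi203 lost its call on leaving out any library but ultrasound 1, with limma adjusted p from 0.112 to 0.185. Ifi204 lost its call without control 2, control 3, ultrasound 2 or ultrasound 3, with limma adjusted p from 0.0835 to 0.180, and with median-of-ratios or upper-quartile factors (0.0608 and 0.0507). Ifi204 is expressed in monocytes and macrophages. The library with most Ifi204 in each group, control 1 and ultrasound 3, was also that with the highest summed monocyte and macrophage markers. This was not particular to those markers, as the summed plasma cell markers were highest in the same libraries. Of the 13 monocyte and macrophage markers 11 lay higher in all ultrasound than in all control libraries, and 0 were listed at 0 in any library. The part of any of these cells in the Ifi204 value was not tested.

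Other PYHIN genes lay on both sides too. Ifi205 and Ifi211 were higher, with log2 changes of 2.01 and 1.59 (limma adjusted p 0.0304 and 0.0496). Ifi205 had 3.21, 1.07 and 1.34 FPKM in the controls and 7.51, 9.76 and 13.6 FPKM in ultrasound 1, 2 and 3. Ifi211 had 3.12, 2.13 and 1.60 FPKM in the controls and 5.18, 7.65 and 16.1 FPKM in ultrasound 1, 2 and 3. Ultrasound 3 was highest and control 1 the highest control for both, and the groups did not overlap. Mndal and Ifi213, named after their values were seen, were lower, with log2 changes of -0.39 and -0.51 (limma adjusted p 0.0464 and 0.0486). Mndal averaged 80.1 ± 3.12 FPKM in controls and 61.1 ± 4.25 in ultrasound libraries (SD, n = 3 each). Ifi206, also singled out afterwards, did not pass (-0.23, limma adjusted p 0.409). Shared sequence makes the split between these genes uncertain: 9.56% of the 100-base words of Ifi204 occur in Ifi211, and 16.9% of those of Ifi209 in Ifi214.

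**Figure D5:**
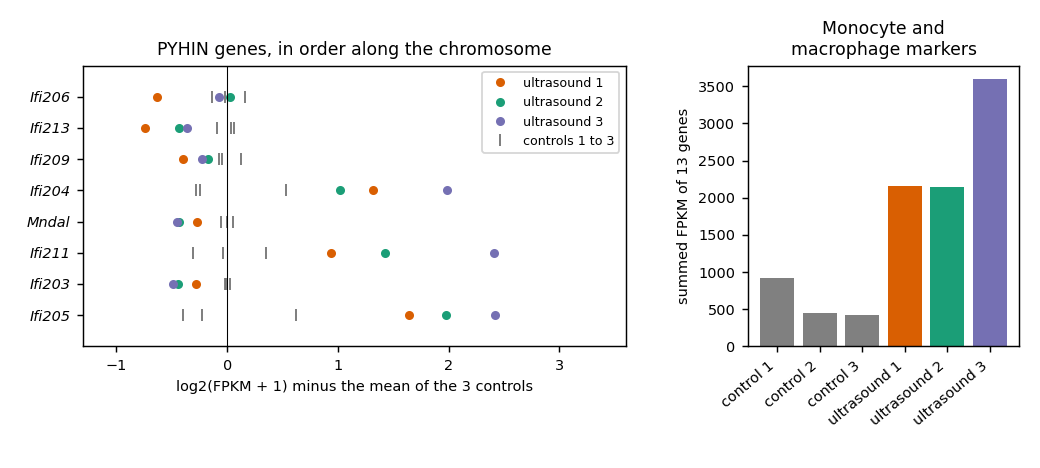
Left, 8 PYHIN genes in order along chromosome 1, as log2(FPKM + 1) minus the control mean in each library. Right, summed FPKM of 13 monocyte and macrophage markers in the same libraries. Ifi204, Ifi211 and Ifi205 lie above all controls, Ifi213, Ifi209, Mndal and Ifi203 below, and the marker sums are 419 to 923 in controls and 2148 to 3600.0 in ultrasound libraries.

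Parp9 and Dtx3l form a complex that attaches ADP-ribose and ubiquitin. Parp9 had 31.3, 27.7 and 31.3 FPKM in the controls and 24.9, 25.7 and 28.0 FPKM in ultrasound 1, 2 and 3. Dtx3l had 29.0, 30.4 and 27.7 FPKM in the controls and 26.9, 31.7 and 32.2 FPKM in ultrasound 1, 2 and 3. Both overlapped between groups. Of the group of 3 with Parp14, 0 of 3 passed by limma, with 0 at an unadjusted p under 0.05, and the adjusted p were 0.199, 0.715 and 0.511 for Parp9, Dtx3l and Parp14. Of the words of Parp9 5.57% occur in Dtx3l, and whether counting used strand is not given in the sources used here.

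Of the remaining members, 0 of 7 passed by limma, with 1 at an unadjusted p under 0.05. Ifi27l2a, a small membrane protein and the most abundant member per length, had 82.6, 80.2 and 119 FPKM in the controls and 47.9, 171 and 199 FPKM in ultrasound 1, 2 and 3. Ultrasound 1 lay below all controls and ultrasound 2 and 3 above, the widest spread among ultrasound libraries of any member. Its log2 change was 0.35 (95% interval -0.88 to 1.58, limma adjusted p 0.654) with ultrasound 1 and 0.99 without it (limma adjusted p 0.00935). Without ultrasound 1, 33.8% of all genes passed as higher. Trim30a, a ubiquitin ligase that restrains receptor signalling, averaged 43.5 ± 2.55 FPKM in controls and 36.2 ± 1.76 in ultrasound libraries (SD, n = 3 each), with no overlap and a limma adjusted p of 0.107. Rtp4, Ifi35, Ifi44, Xaf1 and Phf11b had log2 changes from -0.13 to 0.21, and ultrasound 1 was the lowest library for each of them but Ifi35. Ifi44 was the least abundant member, with 62 to 168 reads per library.

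Without regard to the test, 8 of 38 members (21.1%) lay lower in all ultrasound than in all control libraries, against 8.96% of all genes, and 1 (2.63%) lay higher, against 25.9%. In either direction 34.8% of all genes did not overlap. The 8 were Herc6, Ifit2, Samd9l, Ifih1, Ddx60, Ifi203, Ifi209 and Trim30a. Ultrasound 1 was the lowest library for 1 of these 8, Ifi209, and for 23 of the 29 members that overlapped between groups. Of the 15 members with an ISRE match 4 were among the 8, as were 4 of the 14 with a window and no match. In the authors' deposited table, 8 members had a q under 0.05, where 16.4% of the genes tested here had. Herc6, Samd9l, Ifih1, Ddx60, Ifi203, Ifi209 and Trim30a were lower there and Ifi204 higher, where 7.73% and 8.64% of those genes were.

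Of further interferon pathway genes, 12 of 79 passed by limma, with 33 at an unadjusted p under 0.05, where 31.2% of all genes were. The share that passed was 15.2%, with 8 higher and 4 lower, where 8.11% of all genes passed, 6.55% higher and 1.56% lower. With median-of-ratios factors 4 were higher and 4 lower, where 4.1% of all genes passed. Ifng, the type II interferon, had 34.8, 37.5 and 49.7 FPKM in the controls and 18.3, 9.39 and 12.1 FPKM in ultrasound 1, 2 and 3, with a log2 change of -1.58 (limma adjusted p 0.0304). Irf1, a factor induced by interferon and by T cell activation, averaged 193 ± 1.25 FPKM in controls and 121 ± 12.1 in ultrasound libraries (SD, n = 3 each, limma adjusted p 0.0304). Each ultrasound library was below each control for both. Ifnab, a type I interferon gene, had at most 0.423 FPKM in any library and was not tested, and Ifnb1 is not analysed here.

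Of the receptor and signalling genes, 0 of 9 passed by limma, with 2 at an unadjusted p under 0.05. Ifnar1 averaged 24.1 ± 0.678 FPKM in controls and 25.1 ± 1.42 in ultrasound libraries, and Ifnar2 averaged 15.3 ± 0.421 and 16.8 ± 2.28 (SD, n = 3 each). Of the feedback inhibitors, 0 of 7 passed by limma, with 3 at an unadjusted p under 0.05. Of the genes of sensing and induction 4 of 15 passed by limma, and of further interferon stimulated genes 7 of 47. Beside these lists, 8.11% of all genes passed by limma and 31.2% had an unadjusted p under 0.05.

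Among the pathway genes that passed, the higher ones with the largest change were Ifitm2, Ifitm3, Ifi205, Irf5, Ifi211 and Tlr7. Ifitm2 and Ifitm3, membrane proteins that block virus entry, had log2 changes of 2.35 and 2.15 (limma adjusted p 0.0304 and 0.0327). Ifitm3 had 70.5, 29.4 and 34.6 FPKM in the controls and 137, 161 and 301 FPKM in ultrasound 1, 2 and 3. Irf5 and Tlr7, a transcription factor and an endosomal RNA sensor, had log2 changes of 1.72 and 0.82 (limma adjusted p 0.0311 and 0.0363). For each of the 6, all ultrasound libraries were above all controls, as for 25.9% of all genes tested. The summed monocyte and macrophage, neutrophil, plasma cell and NK cell markers given above were also higher in all ultrasound libraries. The part of any of these cells was not tested. Without ultrasound 1, 45 of the 79 passed by limma, where 53.6% of all genes did, a share near that of the pathway genes. Without control 2, control 3, ultrasound 2 or ultrasound 3, 0 did, as for all genes, with 21 to 28 at an unadjusted p under 0.05. The share of all genes at that unadjusted level was not computed for those fits.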

How the data were processed

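RNA of sorted splenic CD8 T cells was sequenced in 3 control and 3 ultrasound libraries, grouped by sample title. The submitters' processing notes name HISAT2, HTSeq, DESeq2, R 3.2.0 and mm10, with no settings. Per the file headers, the authors deposited FPKM per library. The signal columns of the authors' table are means of DESeq2 normalized counts, with their ratio or fold change and its log2. Its p-value and q-value columns compare the groups, per the file headers. Whole reads were recovered from the linear relation between FPKM and those means: 100% of 92447 values up to 5000 reads lay within 0.05 of a whole number. Reads carry no molecular identifiers.

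limma 3.58.1 (trend, robust) in R 4.3.3 was fitted to log2(FPKM + 1) over the genes that reached an FPKM of 1 in 3 libraries or more. The added 1 makes changes of weakly expressed genes look smaller. Tests were two-sided, with adjustment over all genes. The script was checked on simulated data with known changes. With a dispersion (variation between libraries) of 0.05, it recovered 61% of 2-fold and 100% of 4-fold changes, with 16 false calls. With a dispersion of 0.01 it recovered 100% of both, with 13 false calls. Changes smaller than 2-fold were not simulated. Other steps used Python 3.11.15, numpy 2.4.6, pandas 2.3.3 and matplotlib 3.10.9.

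Promoters and coordinates are RefSeq GRCm38.p6, and shared 100-base words come from GENCODE M21 transcripts. All 40 members are accounted for. Values in every library are given for members with an adjusted p under 0.05 and for the most abundant and most changed member of each role, and pathway genes are the 8 called ones with the largest change with Ifnar1, Ifnar2, Ifnb1 and Ifng. A further gene of this rule is not reported here. Members and lists were chosen with earlier results of these data known. Alternatives covered scaling, filters, pseudocounts, the model, a replicate block, the threshold, the authors' values and each library left out.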

Additional observations from a re-analysis of the deposited data

How the results depend on the processing

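The counts of 3 members and 12 pathway genes stayed within 1.5 times under both scalings, both pseudocounts, FPKM of at least 1 in every library, a fit without the robust option and voom on recovered reads. Without a filter on low values limma gave 0 and 0 calls, and 0 among all genes, with 7 members and 29 pathway genes whose unadjusted p was under 0.05. The share of all genes at that unadjusted level was not computed for this setting. Ultrasound 1 alone against the controls, by a term for the other ultrasound libraries, gave 0 members and 2 pathway genes, where 1.41% of all genes passed. The spread of that fit comes from the other libraries. An adjusted p under 0.1 gave 5 and 21, with no share of all genes at that threshold to set beside them. The authors' deposited table gave 8 members and 25 pathway genes with a q under 0.05, where 16.4% of the genes tested here passed. Leaving out 1 library gave 0 to 14 members and 0 to 45 pathway genes, the highest counts without ultrasound 1, and kept the members' median log2 change between -0.13 and 0.24. The cause was not tested.

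Nothing in the labels says whether libraries with the same replicate number are paired. Over the genes tested, the deviations from the group means had correlations of -0.041, 0.051 and 0.058 for numbers 1, 2 and 3. These correlations cannot decide whether same-numbered libraries were handled together, as other differences between libraries also enter them. The replicate block gave 0 members and 0 pathway genes by limma, and 0 of all genes, with 8 and 34 whose unadjusted p was under 0.05. Here too the share of all genes at that unadjusted level was not computed.

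Herc6, Ifi203 and Ifi204 kept their direction in the 17 alternatives tried for each, and lost their call in 8, 8 and 9. Members that had not passed reversed as follows (log2 change), and the cause was not tested. Dtx3l, Ifit1bl1 and Zbp1 had -0.048, -0.051 and -0.087 with median-of-ratios size factors, -0.038, -0.040 and -0.077 with upper-quartile factors and -0.066, -0.057 and -0.066 in the authors' deposited table. For ultrasound 1 alone, Dtx3l had -0.10, Ifi27l2a -0.93, Ifit1bl1 -0.34, Irf7 -0.31, Oas1a -0.25 and Zbp1 -0.40. Leaving out 1 library gave -0.14 to 0.092 for Bst2, -0.025 to 0.99 for Ifi27l2a, -0.10 to 0.25 for Ifit1bl1 and -0.20 to 0.23 for Zbp1. The least covered member and library had 62 reads, and the effect of depth on the calls was not tested.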

Other observations

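Several interferon-induced families outside the set are given as values, chosen after they were seen. Of the Schlafen genes, which regulate T cell quiescence and growth, Slfn2 averaged 142 ± 11.6 FPKM in controls and 226 ± 48.8 in ultrasound libraries (SD, n = 3 each), with no overlap and a limma adjusted p of 0.0666. Slfn1, Slfn5 and Slfn8 overlapped between groups, with log2 changes of 0.26, 0.29 and -0.14. The nuclear body genes Sp100, Sp110 and Sp140 had log2 changes of -0.047, 0.10 and 0.0070, with ultrasound 1 the lowest library for each, as it was for most members of the main set.

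Socs1, the inhibitor of Jak kinases, had 38.2, 40.2 and 45.0 FPKM in the controls and 30.3, 13.8 and 16.8 FPKM in ultrasound 1, 2 and 3, with a log2 change of -1.06 (limma adjusted p 0.0575). Socs3 had 174, 169.8 and 193 FPKM in the controls and 177, 60.6 and 82.8 FPKM in ultrasound 1, 2 and 3, so that of the ultrasound libraries only 2 and 3 lay below the controls.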
